A study of Mus musculus with 13 samples.

Results

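The genes Ptgs2, Stc1, Star and Spp1 were followed through the chemical reprogramming of mouse fibroblasts. These were 4 of the 15176 genes in the deposited table and were chosen by symbol because their levels were high in cells treated with a mix that contains forskolin, a plant compound that activates adenylyl cyclase. Their high values in treated cells are therefore a description and not a finding, and no test is given for them. Stc1 and Spp1 encode secreted proteins, Ptgs2 an enzyme that makes the precursor of secreted lipid signals, and Star a mitochondrial cholesterol carrier.

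RNA had been sequenced in 13 libraries of bulk mouse cells. Colonies (1 library) and clusters (1 library) were Oct4-GFP-positive cells picked after treatment with VC6TF+Z, and GFP- cells (2 libraries) were Oct4-GFP-negative cells picked after VC6TF. The chemically induced pluripotent lines CiPS6 and CiPS11 (CiPSC, 1 library each) had received VC6TFMB+Z. Untreated embryonic stem cells (ESC, 4 libraries) were all of the single line R1, of strain 129, and untreated mouse embryonic fibroblasts (MEF, 3 libraries) were the starting cells. All groups other than ESC are of strain C57xICR, and the labels call the picked treated cells fibroblasts too. ESC and CiPSC were grown on mitomycin C-treated MEF feeder layers, so these libraries can hold feeder RNA. The labels do not spell out the letters of the mixes and give no treatment times. Nothing says that libraries of a group came from separate cultures, so the spread between them may be technical.

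Values were RPKM, reads per kilobase of gene, made comparable between libraries of unequal depth. No source used here states which length was taken. From the values, 10 libraries were taken to be per kilobase of the whole gene span, introns included. CiPS6, CiPS11 and ESC replicate 4 were taken to be per kilobase of exon. So these 3 were compared only with one another, except in an alternative fit without a term for the length scale. Estimated depth was 8.88 to 17.7 M reads over the 10 gene-span libraries. MEF replicate 3, the colonies and ESC replicate 3 form a separate set within the 10, in which 0.001 stands where the other 7 hold exact 0. Pou5f1, which encodes Oct4, had 123.5 RPKM in the colonies, 0.260 RPKM in the clusters and 0.191 and 0.429 RPKM in GFP- cells. In Pou5f1 RNA the library labelled as Oct4-GFP-positive clusters thus lay between both libraries labelled Oct4-GFP-negative. The label names the Oct4-GFP reporter, which is a different measure from RNA of the gene itself. Summed fibroblast markers (9 of 10 in the table) were 86.8 RPKM in the colonies, 260 RPKM in the clusters, 315 to 385 RPKM in GFP- cells, 36.6 to 68.0 RPKM in ESC and 896 to 2940 RPKM in MEF. Col1a1 was the largest part of the MEF sums, at 338, 292 and 1824 RPKM, against 19.0 and 21.0 RPKM in GFP- cells. In the limma fit described below, 4 of the 9 were called lower in GFP- cells than in MEF and 0 higher. Twist1, not called, had 59.6 and 82.0 RPKM in GFP- cells, against 33.4, 19.5 and 34.4 RPKM in MEF.

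Prostaglandins are made when a cyclooxygenase, Ptgs1 or the inducible Ptgs2, converts arachidonic acid into an unstable precursor that terminal synthases turn into single prostaglandins, which then act on G protein-coupled receptors. Steroid hormones start from cholesterol: Star moves it to the inner mitochondrial membrane, where the side-chain cleavage enzyme Cyp11a1 makes pregnenolone. Forskolin raises cyclic AMP, the second messenger through which pituitary hormones switch on Star in the adrenal gland and the gonads, and Ptgs2 is a known cyclic AMP-responsive gene in several cell types. Stc1 encodes stanniocalcin, a secreted glycoprotein first known as a calcium-lowering hormone of bony fish. Spp1 encodes osteopontin, a secreted phosphoprotein of bone matrix that binds integrins and Cd44 and that macrophages also make.

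Ptgs2, the inducible cyclooxygenase, lies on chromosome 1. It had 0.0252 RPKM in the colonies, 56.4 RPKM in the clusters and 110.1 and 89.1 RPKM in GFP- cells. It had 1.27, 1.55 and 0.455 RPKM in ESC and 0.877, 1.84 and 0.461 RPKM in MEF. The clusters and both GFP- libraries lay far above all other libraries, ESC and MEF overlapped, and the colonies lay lowest of the 10. GFP- cells averaged 99.6 ± 14.8 RPKM (SD, n = 2), against 1.06 ± 0.709 RPKM in MEF (SD, n = 3), a ratio of 93.9. The colony value stood for only 2 reads, against 4107 reads in the clusters, which gives clusters over colonies an exact 95% counting interval of 641 to 19100. That interval covers counting error only. It leaves out the spread between libraries and table sets, and the cluster value entered the choice of the gene, so it does not test the drop. In bulk RNA, fewer expressing cells and less RNA per cell cannot be told apart.

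The promoter of Ptgs2 is shown because cyclic AMP-responsive genes are often read through the cyclic AMP response element (CRE). The stretch runs from 250 bases before to 30 bases after the RefSeq start on the plus strand, chr1:150099781-150100060, in build GRCm38.p6. Capitals mark the CRE core, TGACG, read on the opposite strand at +14 to +18. They also mark an E-box, CACGTG, at +17 to +22 that overlaps the core by 2 bases. Positions count from the RefSeq start, and where transcription starts in these cells was not tested.
Ptgs2 promoter: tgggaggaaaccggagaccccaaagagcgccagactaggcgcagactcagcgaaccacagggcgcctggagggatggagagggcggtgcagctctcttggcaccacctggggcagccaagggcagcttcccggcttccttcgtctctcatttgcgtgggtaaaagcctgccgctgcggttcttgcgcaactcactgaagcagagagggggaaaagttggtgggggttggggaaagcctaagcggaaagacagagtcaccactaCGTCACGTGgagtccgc
The CRE core stood in 20.8% and the E-box in 7.15% of 32851 RefSeq promoter windows of 300 bases, both strands searched. The full CRE, TGACGTCA, which 1.79% of windows held, was not in the Ptgs2 window. Nor were the AP-1 letters TGAGTCA (5.20% of windows), the orphan nuclear receptor letters CAAGGTCA (1.56%) or TATAAA (13.6%).

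Stc1, on chromosome 14, had 0.151 RPKM in the colonies, 33.1 RPKM in the clusters and 56.5 and 58.8 RPKM in GFP- cells. It had 0.120 and 0.276 RPKM in ESC replicates 1 and 2, was listed at 0.001 in ESC replicate 3, where 3 reads would have been 0.0239 RPKM, and had 0.470, 0.959 and 0.703 RPKM in MEF. The order was GFP- cells, clusters, MEF and then ESC, with the colonies inside the ESC range. GFP- cells averaged 57.7 ± 1.62 RPKM (SD, n = 2), against 0.711 ± 0.245 RPKM in MEF (SD, n = 3), a ratio of 81.2. Clusters stood at 0.574 times the GFP- mean, close to the 0.567 times of Ptgs2 and the 0.593 times of Spp1. The Stc1 span overlaps 1 annotated antisense gene, Gm41192, and the strand handling of the counting is not given in the sources used here.

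Star, on chromosome 8, had a different order. It had 0.335 RPKM in the colonies, 87.5 RPKM in the clusters, 12.5 and 12.7 RPKM in GFP- cells, 3.02, 0.616 and 0.671 RPKM in ESC and 0.0493, 0.453 and 0.137 RPKM in MEF. The clusters lay highest at 6.95 times the GFP- mean, where the other 3 genes lay below their GFP- means, and GFP- cells lay above every ESC and MEF library. The colonies lay within the MEF range. GFP- cells averaged 12.6 ± 0.174 RPKM (SD, n = 2), against 0.213 ± 0.212 RPKM in MEF (SD, n = 3), a ratio of 59.1, and the lowest MEF value stood for 5 reads. By rank among the 15176 genes Star was 116th in the clusters and 869th and 849th in GFP- cells.

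Spp1, on chromosome 5, was the most abundant of the 4 genes per kilobase of span in each of the 10 libraries. It had 26.3 RPKM in the colonies, 249.9 RPKM in the clusters and 455 and 389 RPKM in GFP- cells, where it ranked 10th and 15th of all genes. It had 8.57, 15.0 and 49.1 RPKM in ESC and 10.8, 13.5 and 26.9 RPKM in MEF. The clusters and GFP- cells lay above all others, and colonies, ESC and MEF overlapped. Outside the treated cells the highest values were those of the set that holds 0.001, at 49.1 RPKM in ESC replicate 3 and 26.9 RPKM in MEF replicate 3. The colonies, at 26.3 RPKM, belong to that set too. Summed macrophage markers were also highest in MEF replicate 3, at 210 RPKM against 20.1 and 31.8 RPKM in MEF replicates 1 and 2, and their part in its Spp1 level was not tested. GFP- cells averaged 422 ± 46.7 RPKM (SD, n = 2), against 17.1 ± 8.65 RPKM in MEF (SD, n = 3), a ratio of 24.7.

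The first Spp1 promoter in RefSeq is given for comparison with that of Ptgs2, since both genes were high in the same 3 libraries. The stretch is chr5:104434861-104435140 on the plus strand in GRCm38.p6, cut as for Ptgs2, and capitals mark TATAAA at -211 to -206.
Spp1 promoter: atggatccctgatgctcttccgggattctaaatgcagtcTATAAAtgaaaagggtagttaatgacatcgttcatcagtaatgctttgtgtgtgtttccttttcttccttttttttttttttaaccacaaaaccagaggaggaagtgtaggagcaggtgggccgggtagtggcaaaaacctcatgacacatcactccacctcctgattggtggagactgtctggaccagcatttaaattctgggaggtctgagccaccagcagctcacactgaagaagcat
Neither CRE form, the AP-1 letters, the nuclear receptor letters nor the E-box was in the 300-base window, and the window of the second Spp1 start held none of the 6 motifs. Promoters of 2 of the 4 genes were matched in the RefSeq table. The Spp1 span overlaps 1 annotated transcript of unknown kind on its own strand, Gm42793.

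**Figure D1:**
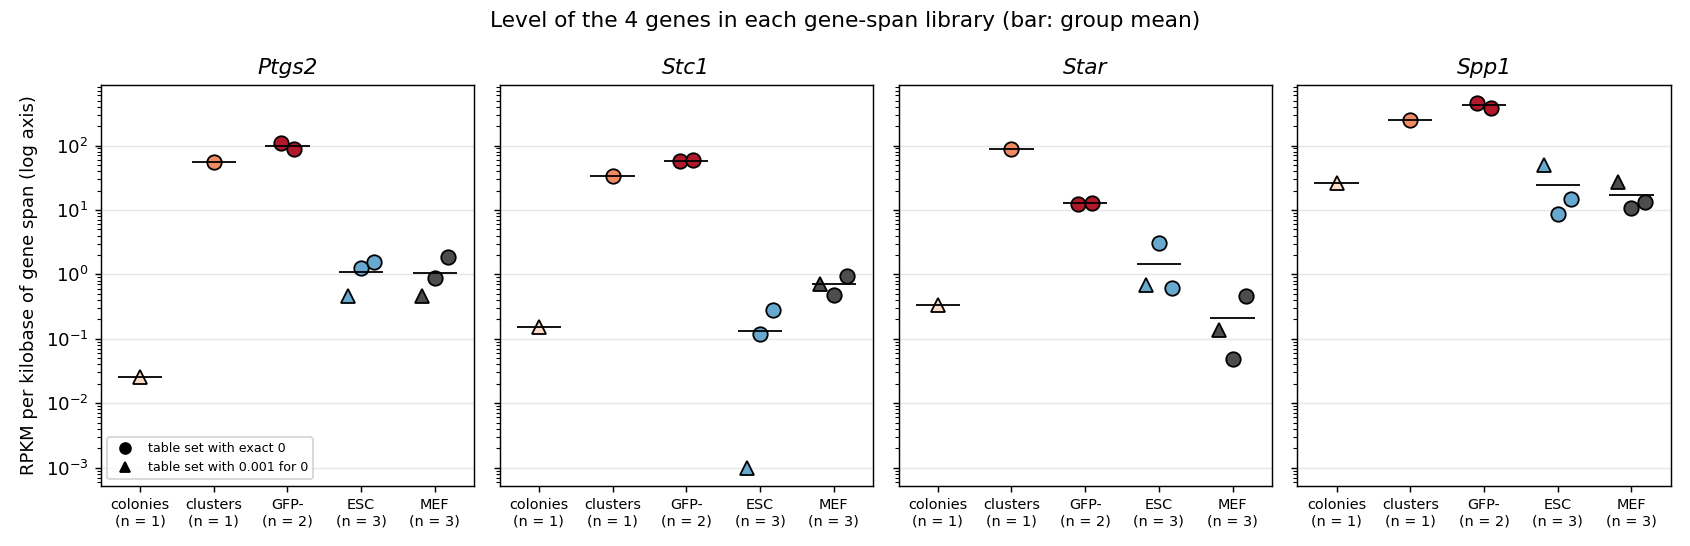
RPKM per kilobase of gene span (log axis) of Ptgs2, Stc1, Star and Spp1 in each of the 10 gene-span libraries, 1 point per library, with a bar at the group mean and triangles for the set that holds 0.001 in place of 0. The clusters and GFP- cells stand above the rest in every panel, Star is highest in the clusters at 87.5 RPKM, and the lowest Stc1 point is the 0.001 listed for ESC replicate 3.

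On the scale of log2(RPKM + 1), which shrinks differences of low genes, GFP- cells minus MEF gave 5.66 ± 0.35 for Ptgs2, 5.11 ± 0.21 for Stc1, 4.65 ± 0.66 for Spp1 and 3.50 ± 0.38 for Star (limma estimate ± SE). These differences ranked 1st, 2nd, 3rd and 20th from the highest of the 10647 genes tested. GFP- cells minus ESC gave 5.62 for Ptgs2, 5.70 for Stc1, 4.42 for Spp1 and 2.62 for Star, and the comparison shares its GFP- libraries with the first. All 4 genes were above the full range of MEF and of ESC in both GFP- libraries. That placement held for 13.5% of genes tested against MEF and for 17.6% against ESC, and it is given here as a description because the genes were chosen for it. With the libraries that hold exact 0 alone, the 4 differences from MEF ran the same way.

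Among the 4 genes, Star parted from the other 3 between GFP- cells and clusters. These groups differ both in GFP label and in mix, VC6TF against VC6TF+Z, so label and mix cannot be told apart. Clusters minus the GFP- mean was 2.70 for Star and -0.80, -0.78 and -0.75 for Ptgs2, Stc1 and Spp1 on the log2 scale. No test was run on the single library of clusters, and a log2 difference of 2 or more served as the threshold, which 3.21% of genes passed upward. Star was 127th from the highest of 10647 genes. Colonies minus clusters was -5.81 for Ptgs2, -4.89 for Stc1, -6.05 for Star and -3.20 for Spp1, and all 4 passed the downward threshold that 3.73% of genes passed. They ranked 3rd, 7th, 2nd and 100th from the lowest. The clusters are among the treated cells in which the genes were chosen for high levels, so these drops start from values that entered the choice, and nothing is read from their share or rank. The colonies carried 652 RPKM of summed pluripotency markers against 1.53 RPKM in the clusters, of which Dppa5a made up 513 RPKM and Pou5f1 123.5 RPKM, while Nanog had 0.0418 RPKM in the colonies and 0.141 RPKM in the clusters. They also carried 972 RPKM of summed extraembryonic endoderm markers against 223 RPKM. The 2 libraries belong to different table sets, so set and stage cannot be told apart here.

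Some other genes of prostaglandin synthesis were also higher in GFP- cells than in MEF, on a list chosen with earlier results of these data known. Besides Ptgs2 the table held 12 of its genes, and those too low were not tested. Of 9 tested genes of the list other than Ptgs2, 4 rose and 1 fell against MEF, called at an adjusted p under 0.05 and an absolute log2 difference of at least 1. Among all genes tested 3.53% rose and 4.09% fell, and the median difference was 0.29 over the 9 and -0.13 over all genes. Ptgs1, the constitutive cyclooxygenase, had 24.1 and 14.6 RPKM in GFP- cells, against 0.309, 0.730 and 0.485 RPKM in MEF, a log2 difference of 3.72 ± 0.23 (SE, limma adjusted p = 4.6e-05). Ptges, the inducible prostaglandin E synthase, had 13.8 and 14.8 RPKM in GFP- cells, against 0.868, 0.269 and 0.749 RPKM in MEF, a difference of 3.25 ± 0.24 (limma adjusted p = 0.000128). The values of both genes in the 2 groups were far apart.

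Akr1b3, an aldose reductase that can also make prostaglandin F, had 16.1 and 12.1 RPKM in GFP- cells, against 1.01, 0.723 and 1.56 RPKM in MEF (difference 2.85 ± 0.31, limma adjusted p = 0.000916). Slco2a1, the prostaglandin transporter, had 2.80 and 5.34 RPKM in GFP- cells, against 0.821, 0.634 and 0.426 RPKM in MEF (difference 1.60 ± 0.22, limma adjusted p = 0.00347). The Slco2a1 call was lost with the exact-0 libraries alone, where limma's adjusted p was 0.0611, and that of Akr1b3 without the length-scale term, at 0.117. Akr1b3 belongs to a gene family with similar copies, so reads may have been split among them. Ptgds, which makes prostaglandin D, fell: it was listed at 0 in both GFP- libraries and the clusters, against 2.53, 4.51 and 8.04 RPKM in MEF (limma adjusted p = 0.00225). The colonies had 7.995 RPKM of Ptgds. The remaining 4 tested genes of the list, Ptges2, Ptges3, Ptgis and Cbr1, were not called.

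The clusters also stood above every MEF library for these genes, with 14.8 RPKM of Ptgs1, 6.61 RPKM of Ptges, 7.45 RPKM of Akr1b3 and 7.88 RPKM of Slco2a1. In the colonies Ptgs1 was at 0.0592 RPKM while Ptges was at 3.51 RPKM and Slco2a1 at 3.09 RPKM, both above every MEF library. Of the prostaglandin receptors 4 of 7 in the table were tested, and 1 rose in GFP- cells. It was Ptgfr, the prostaglandin F receptor, with 1.86 and 0.975 RPKM in GFP- cells, against 0.0871, 0.146 and 0.322 RPKM in MEF (difference 1.01 ± 0.15, limma adjusted p = 0.00480). Its difference fell just under 1 without MEF replicate 1 (0.95) and without MEF replicate 2 (0.99). Ptgir, the prostacyclin receptor, had 3.91 and 31.1 RPKM in GFP- cells, against 1.53, 1.88 and 1.77 RPKM in MEF, and was not called (limma adjusted p = 0.0593). The GFP- libraries were well apart from each other for Ptgir, and both were above all MEF libraries.

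Of the 20 listed genes of steroid synthesis 10 were in the table and 8 were tested, Star included, so much of the route was not measured here. Of the 7 tested steroid genes other than Star, 1 rose and 0 fell in GFP- cells, with a median difference of 0.04. The one that rose was Akr1c18, an enzyme that inactivates progesterone, with 4.69 and 5.65 RPKM in GFP- cells, against 0.00467, 0.0250 and 0.0231 RPKM in MEF (difference 2.60 ± 0.13, limma adjusted p = 1.54e-05). In the clusters Akr1c18 had 0.460 RPKM, and its family of similar genes makes its reads uncertain. Cyp11a1, the side-chain cleavage enzyme, had 1.27 RPKM in the clusters (232 estimated reads), against 0.00752 and 0.0403 RPKM in GFP- cells (2 and 9 reads), and was listed at 0 or 0.001 in all 3 MEF libraries. It was at 1 RPKM or more in too few libraries to be tested.

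Fdx1, the ferredoxin that hands electrons to Cyp11a1, had 4.59 RPKM in the clusters, against 0.401 and 1.50 RPKM in GFP- cells. Tspo, an outer mitochondrial membrane protein, had 5.50 RPKM in the clusters, against 0.0765 and 0.975 RPKM in GFP- cells. MEF replicate 3 had 4.98 RPKM of Tspo as well. Star, Cyp11a1, Fdx1 and Tspo were higher in the single cluster library than in either GFP- library, as were 30.6% of all genes tested. Past the log2 difference of 2 stood, of the 7 tested steroid genes other than Star, Tspo upward (2.16) and Akr1c18 downward (-2.08), while Fdx1 was at 1.58. Fdxr, the reductase of the same electron chain, was at 0.0994 RPKM in the clusters against 0.0100 and 0.247 RPKM in GFP- cells. Hsd17b1, which converts estrone to estradiol, was at 0.371 RPKM in the clusters and listed at 0 in GFP- cells. In MEF replicates 1, 2 and 3 Hsd17b1 had 0.0398, 0.426 and 1.72 RPKM. Srd5a1, steroid 5-alpha-reductase, was at 0.0148 RPKM in the clusters, against 1.70 and 0.395 RPKM in GFP- cells. The nuclear receptor Nr5a2 was under 0.005 RPKM in both groups. Nr0b1, a repressor of steroid genes that ESC also express, was listed at 0 in the clusters and had 6.43 RPKM in the colonies and 9.50 to 12.5 RPKM in ESC. Of 8 defining steroidogenic cell markers 2 were in the table, and their summed level was 1.27 RPKM in the clusters and 0.0739 to 0.183 RPKM in GFP- cells. The same sum was 2.74 RPKM in the colonies, 0.0552 to 2.72 RPKM in ESC and 0 to 1.15 RPKM in MEF. By this sum the clusters did not stand apart, but it mixes unlike genes. In the clusters it was all Cyp11a1, while Insl3 made up 2.71 RPKM in the colonies and 2.64 RPKM in ESC replicate 3. Cyp11a1 alone was at 0.0332 RPKM in the colonies and 0 to 0.0831 RPKM in the gene-span ESC libraries, below the single cluster library. Cholesterol supply genes other than Star numbered 10 tested, of which 1 rose and 0 fell: Stard5, a sterol-binding protein, had 6.18 and 6.50 RPKM in GFP- cells, against 0.781, 1.07 and 0.962 RPKM in MEF (difference 1.92 ± 0.25, limma adjusted p = 0.00274).

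**Figure D2:**
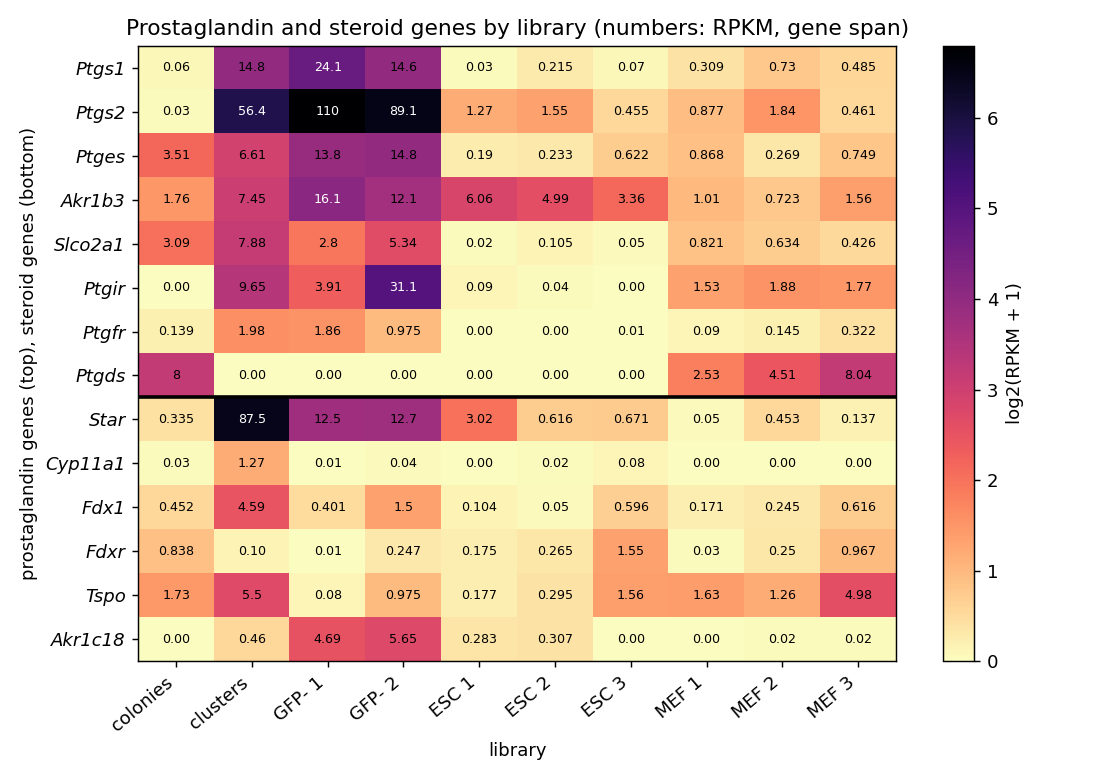
RPKM per kilobase of gene span of selected prostaglandin genes (above the black line) and steroid genes (below it), shaded by log2(RPKM + 1). Each of the 10 gene-span libraries is a column. Listed genes that are not drawn include Ptges2, Ptges3, Ptgis, Cbr1, Srd5a1, Hsd17b1, Nr5a2 and Nr0b1. Ptgs1, Ptgs2, Ptges and Akr1b3 are dark in the clusters and GFP- cells, and Star, Cyp11a1, Fdx1 and Tspo reach 87.5, 1.27, 4.59 and 5.50 RPKM in the clusters.

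Stc2, the paralog of Stc1, was low where Stc1 was high. It had 0.0212 and 0.159 RPKM in GFP- cells, against 1.36, 1.32 and 1.81 RPKM in MEF, and the groups did not overlap. The difference was -1.19 ± 0.29 (limma adjusted p = 0.0392), but the call was lost in 11 of 12 alternatives, among them each one that left out a single library. None of the other 3 tested genes of phosphate transport and stanniocalcin partners was called. Fam20c, a kinase that phosphorylates osteopontin and the only other gene of the osteopontin family list in the table, had 0 and 0.0366 RPKM in GFP- cells, against 0.307, 0.451 and 0.748 RPKM in MEF, too low to be tested.

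Of 5 tested osteopontin receptor genes, 0 rose and 1 fell in GFP- cells by limma, with a median difference of -0.48. It was the fibronectin receptor subunit Itga5, with 3.26 and 2.27 RPKM in GFP- cells, against 12.6, 12.1 and 9.59 RPKM in MEF (difference -1.72 ± 0.38, limma adjusted p = 0.0266). The call was lost in 7 of 12 alternatives, including without any one of MEF replicates 1 and 2 and GFP- replicates 1 and 2. Cd44 had 6.06 RPKM in the clusters, against 2.94 and 2.00 RPKM in GFP- cells, and 0.883 to 7.29 RPKM in MEF.

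Of 12 tested cyclic AMP target genes on the list, 1 rose and 2 fell in GFP- cells against MEF, with a median difference of -0.34. Of all genes tested 3.53% rose and 4.09% fell, with a median of -0.13. The picture depended on the reference: against ESC the median of the same 12 genes was 1.48, and that of all genes was -0.25. Areg, which encodes the growth factor amphiregulin, had 21.3 and 12.4 RPKM in GFP- cells, against 1.93, 0.00639 and 0.001 RPKM in MEF (difference 3.59 ± 0.44, limma adjusted p = 0.00178). In the clusters Areg was at 0.547 RPKM, unlike Ptgs2, Stc1, Star and Spp1. Fosb, an immediate early transcription factor, fell, with 1.22 and 2.29 RPKM in GFP- cells, against 7.44, 8.01 and 11.5 RPKM in MEF (difference -1.86 ± 0.23, limma adjusted p = 0.00181). Sik1, a kinase that restrains cyclic AMP signalling, had 0.196 and 0.537 RPKM in GFP- cells, against 2.90, 2.19 and 3.47 RPKM in MEF (limma adjusted p = 0.0378), a call lost in 8 of 12 alternatives. Leaving out any 1 of the 3 MEF libraries or GFP- replicate 1 ended the Sik1 call. Of 9 tested parts of the cyclic AMP pathway, 0 rose by limma and 1 fell: the anchoring protein gene Akap12, with 1.45 and 1.40 RPKM in GFP- cells, against 10.9, 10.7 and 3.34 RPKM in MEF (limma adjusted p = 0.0370). Its call was lost in 7 of 12 alternatives, among them without MEF replicate 1 or 2 and without either GFP- replicate. The full set of GFP- differences from MEF counted 811 called genes, 7.62% of those tested (540 without GFP- replicate 1 and 1457 without GFP- replicate 2), and 2745 genes had an unadjusted p under 0.05.

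**Figure D3:**
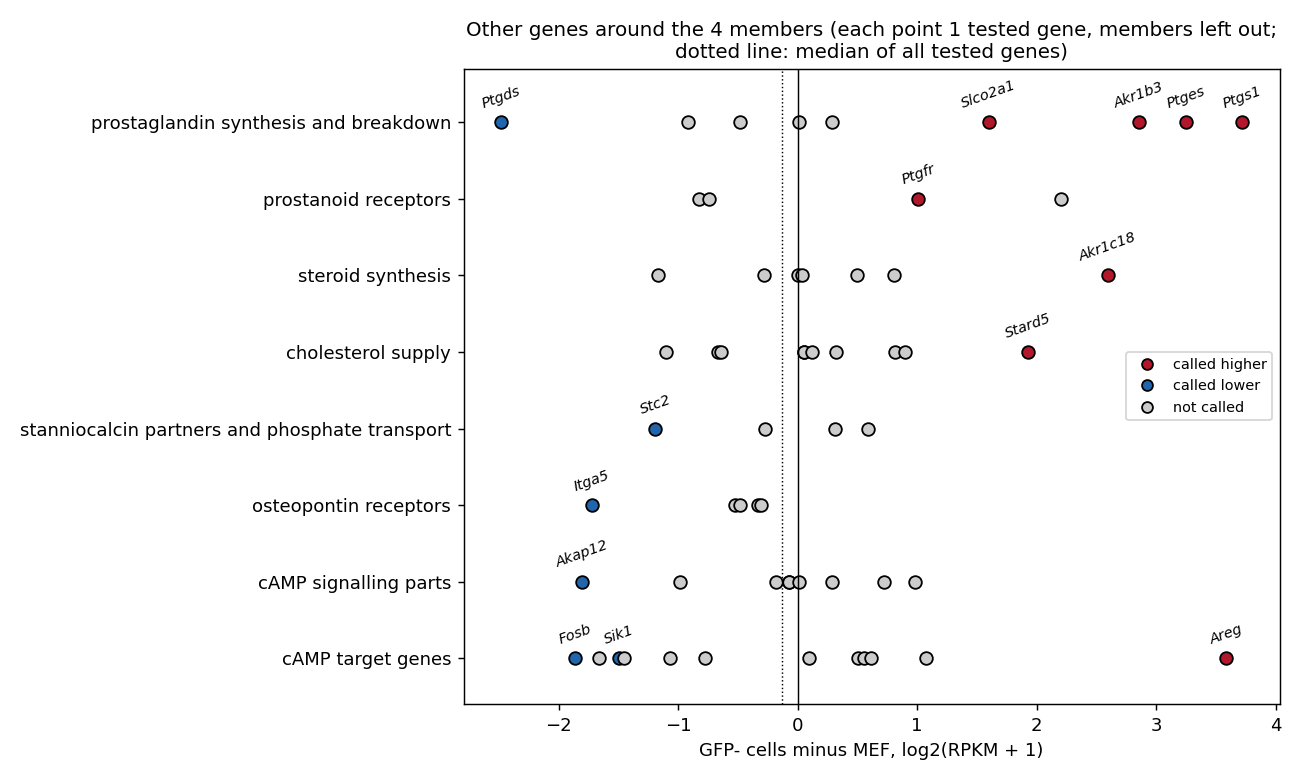
Differences of log2(RPKM + 1), GFP- cells minus MEF, for the tested genes of 8 lists with the 4 chosen genes left out, 1 point per gene, red for called higher and blue for called lower. Ptgs1, Ptges, Akr1b3 and Slco2a1 stand to the right in the prostaglandin row, while called genes in the stanniocalcin, osteopontin receptor and cyclic AMP pathway rows stand to the left.

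Markers of other cells that make these proteins were looked at beside them. Of 12 macrophage markers 7 were in the table, and they summed to 46.6 RPKM in the clusters, 53.9 to 69.7 RPKM in GFP- cells and 20.1 to 210 RPKM in MEF. In GFP- cells nearly all of the sum was Cd14, at 69.3 and 52.3 RPKM, while Cd68 was at 0.233 and 1.45 RPKM, Lyz2 at 0 and 0.0194 RPKM and Fcer1g was listed at 0 in both. Apart from Cd14, these macrophage genes were thus low or at 0 where Spp1 was highest. Osteoblast markers (5 of 8 in the table) summed to 21.4 RPKM in the clusters, 19.3 and 21.3 RPKM in GFP- cells and 292 to 1830 RPKM in MEF, nearly all of it Col1a1. Trophoblast markers (3 of 8) summed to 1.27 RPKM in the clusters, 0.958 and 1.03 RPKM in GFP- cells and 0.0639 to 0.128 RPKM in MEF. The same sum was 0.997 to 5.3 RPKM in the gene-span ESC libraries. In the clusters and GFP- cells nearly all of it was Eomes. Hand1 was listed at 0 in these libraries, and so was Cdx2 except for 0.0305 RPKM in GFP- replicate 2.

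ESC against MEF was a comparison in which the choice of genes did not fix a direction. The MEF levels entered that choice, and the ESC levels may have too. Genes chosen as high in treated cells can be low in both groups, so nothing is read from how many were called. None of the 4 genes was called, against 15.9% of genes tested. Stc1 was lower in ESC by -0.59 on the log2 scale (95% interval -1.01 to -0.17, limma adjusted p = 0.0470), which is under the threshold of 1. Its 3 ESC values all lay below its 3 MEF values, as did those of 16.7% of genes. Star was higher in ESC by 0.88 (interval 0.10 to 1.67, limma adjusted p = 0.0969), and its 3 ESC values all lay above its MEF values, as did those of 26.8% of genes. Ptgs2 differed by 0.04 (interval -0.67 to 0.74) and Spp1 by 0.23 (interval -1.12 to 1.58), with limma adjusted p of 0.947 and 0.816, and both overlapped between the groups. With a pseudocount of 0.1 in place of 1 RPKM, which weighs low values more, Stc1 (-1.95, limma adjusted p = 0.0198) and Star (2.15, adjusted p = 0.0398) were both called. Over 13 alternatives the adjusted p ran between 0.0198 and 0.365 for Stc1 and between 0.0398 and 0.241 for Star.

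On the exonic scale, Ptgs2 had 0.0471 RPKM in CiPS6 and 0.0583 RPKM in CiPS11, against 1.83 RPKM in ESC replicate 4. That single ESC library had 34.7 times the CiPSC mean, and the log2 difference was -1.43 ± 0.46 (interval -2.48 to -0.37). With 1 ESC library on this scale, that library is assumed to vary like the others, and the error comes from the spread within CiPSC and the gene-span groups. It was not called (limma adjusted p = 0.604, unadjusted p = 0.0141), in a comparison where 0.160% of genes were. Over 9 alternatives the adjusted p ran between 0.105 and 1. The alternative without the length-scale term set CiPSC against all 4 ESC libraries, across both scales. The main difference was 44th from the lowest of 10647. Summed fibroblast markers were 98.1 and 96.0 RPKM in CiPS6 and CiPS11, against 148 RPKM in ESC replicate 4, and 7 of the 9 were higher in ESC replicate 4 than in both lines. Among them Col1a1 had 0.717 and 0.183 RPKM in the lines, against 6.58 RPKM. Their part in the Ptgs2 difference was not tested.

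The other 3 genes had close values on the exonic scale. Stc1 had 0.102 and 0.0769 RPKM in the CiPSC lines, against 0.0657 RPKM in ESC replicate 4 (difference 0.03, interval -0.60 to 0.66). Star had 0.347 and 0.443 RPKM in the CiPSC lines, against 0.634 RPKM (difference -0.23, interval -1.41 to 0.95). Spp1 had 61.7 and 57.8 RPKM in the CiPSC lines, against 52.8 RPKM (difference 0.18, interval -1.84 to 2.19). These intervals rest on the same assumption about the single ESC library, so they do not measure its spread, and no equality of levels is read from them.

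**Figure D4:**
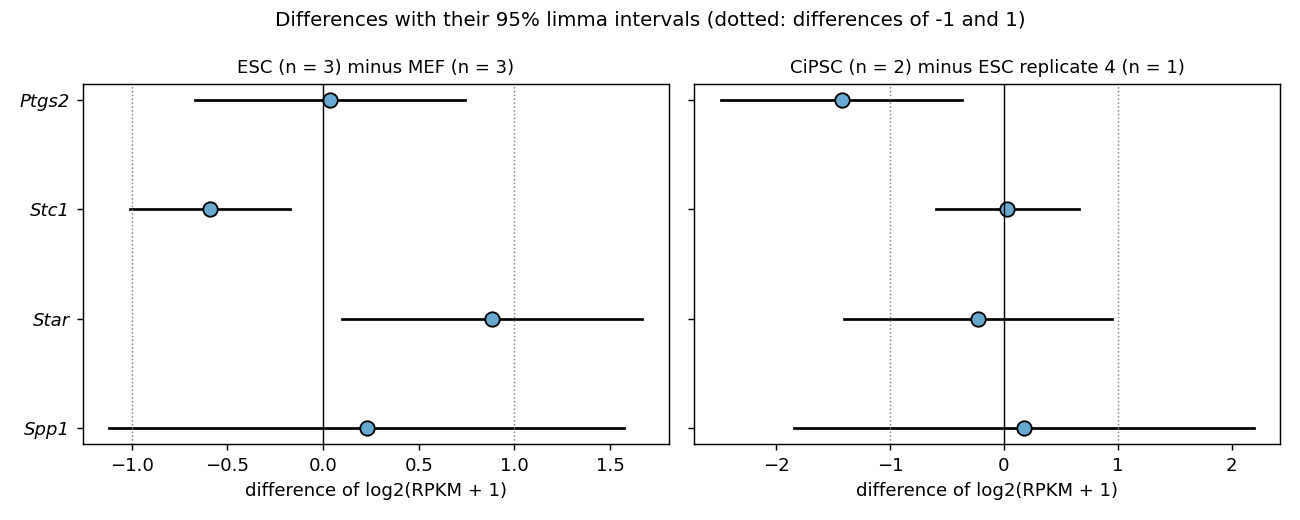
Differences of log2(RPKM + 1) with 95% limma intervals for the 4 genes, ESC minus MEF on the gene-span scale (left) and CiPSC minus ESC replicate 4 on the exonic scale (right), with dotted lines at -1 and 1. The intervals of Stc1 (left) and Ptgs2 (right) lie below 0, and that of Star (left) lies above 0.

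The genes whose levels ran most like each of the 4 were taken by Pearson correlation of log2(RPKM + 1) over the 10 gene-span libraries, among 2710 other genes that reached 10 RPKM. The points share groups, depth and table sets, and the 4 genes were chosen for high values in the same treated cells. The correlations are therefore descriptions. Nearest to Ptgs2 were Stc1 (r = 0.988), Ptgs1 (0.986), Aif1l (0.984), Ahr (0.981) and Gprc5b (0.974). Nearest to Stc1 were Ptgs1 (r = 0.995), Fgl2 (0.990), Fam84a (0.988), Ptgs2 (0.988) and Tubb4 (0.983). Ptgs2 and Stc1 thus each stood in the other's list by Pearson correlation, and Ptgs1 stood in both. With Spearman correlation most of these nearest genes were replaced by others. Nearest to Star were Gzf1 (r = 0.975), Tbce (0.970), Rbbp8 (0.959), Abi1 (0.959) and Ankrd12 (0.956), genes that were also highest in the clusters, such as Tbce with 97.9 RPKM in the clusters against 21.1 and 18.1 RPKM in GFP- cells. Nearest to Spp1 were Tchh (r = 0.955), Fam110c (0.954), Tubb4 (0.949), Cxcr7 (0.947) and Il33 (0.939). Between the 4 genes the lowest correlation was that of Star with Spp1 (r = 0.793).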

How the data were processed

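The authors deposited RPKM values, 1 column for each library, per the file headers. The submitters' processing notes name TopHat 1.3.0 and mm9. Counting tool, annotation and strand handling: not given in the sources used here. Of 15184 rows, 8 that shared 1 identifier were left out, and 0 columns lacked a sample. Lengths of 13671 genes (90.1%) from a GRCm38 annotation (used for length only) turned 82.3 to 84.5% of low values of the 10 gene-span libraries into whole reads (tolerance 0.05), which gave depth, estimated reads and floors of 3 reads. These cover counting error only, and reads of Star are approximate. In the other 3 at most 14.0% came out whole, and gene-span lengths would give 2.75 to 2.79 assigned reads per sequenced read, against 0.634 to 0.825 in the 10. The exonic scale was inferred from this, on the assumption that a read was assigned at most once.

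The 10647 genes that reached 1 RPKM in 2 or more libraries were fitted with limma 3.58.1 in R 4.3.3 on log2(RPKM + 1): 6 groups, a length-scale term, trended prior, 6 residual degrees of freedom, Benjamini-Hochberg adjustment over all genes. The fit was checked on simulated data with independent noise, which held no effects of table set or length scale. The 4 genes, the lists and the tests were chosen with earlier results of these data known. Named were the 4 genes, up to 4 called genes per list and comparison with the smallest p, every steroid synthesis gene with its paralogs and prostaglandin E synthases, and the 5 genes most like each of the 4. Cd44, Ptgir and marker genes were named after their values were seen. Alternatives changed the pseudocount, filter, scaling, libraries, length term and replicate block.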

Additional observations from a re-analysis of the deposited data

How the results depend on the processing

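The counts of called genes moved with several choices, and the cause was not tested unless stated. GFP- against MEF (811) gave 1391 with a pseudocount of 0.1 RPKM, 533 on the gene-span libraries alone, 376 without the length-scale term, 503 on the exact-0 libraries, which are fewer, and 329 with the replicate block on libraries numbered 1 and 2. Leaving out 1 library gave 540 (without GFP- replicate 1) to 1457 (without GFP- replicate 2). The share of these calls that were higher was 46.4%, against 33.6% with the smaller pseudocount, 56.6% with quantile scaling and 63.7% without GFP- replicate 1. GFP- against ESC (2415, of which 36.8% higher) gave 3861 with the smaller pseudocount, and quantile scaling moved the higher share to 52.1%. ESC against MEF (1695) gave 2590 with the smaller pseudocount and 1087 with the replicate block. CiPSC against ESC replicate 4 (17) gave 3 with the smaller pseudocount, 50 with no filter, 28 with quantile scaling, 9 without the length-scale term, and 3 to 43 leaving out 1 library: 3 without either CiPSC line and 43 without ESC replicate 3. The fit without the length-scale term set CiPSC against all 4 ESC libraries, across both length scales. A fit without ESC replicate 4 could not be made. Clusters against GFP- cells (620 past a log2 difference of 2) gave 2220 with the smaller pseudocount and 725 to 991 leaving out a GFP- library, 991 without replicate 2, and the higher share was 55.2%, against 42.7% with the smaller pseudocount and 42.1% without replicate 1. Colonies against clusters (1538, of which 74.2% higher) gave 4099 with the smaller pseudocount, and quantile scaling moved the higher share to 53.4%.

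The 4 genes kept the sign of their GFP- differences from MEF in 12 alternatives, with Ptgs2 at 5.44 to 6.60, Stc1 at 5.01 to 6.20, Star at 3.40 to 5.56 and Spp1 at 4.39 to 5.23. For ESC minus MEF the smaller pseudocount called Stc1 (-1.95) and Star (2.15). Ptgs2 changed sign with quantile scaling (-0.0558) and leaving out 1 library gave -0.18 to 0.30. Spp1 was -0.0780 on the exact-0 libraries and with the replicate block, and -0.44 to 0.75 leaving out 1 library. Without the length-scale term, which mixes the length scales, Stc1 in CiPSC minus the mean of all 4 ESC libraries was -0.0285. Ptgs1, Ptges, Ptgds and Areg were called against MEF in all 12 alternatives, Akr1c18 in the 10 that tested it, Akr1b3, Stard5 and Fosb in 11 (the replicate block ended the calls of Stard5, limma adjusted p = 0.0506, and Fosb, 0.0721), Slco2a1 in 10 and Ptgfr in 8 of 10. With Spearman in place of Pearson correlation, 1 of the 5 nearest genes of Ptgs2, Star and Spp1 and 0 of those of Stc1 were shared. Replicate numbers did not pair the libraries (correlations of deviations -0.0417, 0.0826 and -0.0673). Depth limits the low values: Ptgs2 in the colonies rests on 2 reads and Star in MEF replicate 1 on 5.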
